A study of Mus musculus with 6 samples.

Results

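The enzymes of drug and xenobiotic metabolism were followed in 3T3-L1 adipocytes, fat cells that arise in culture from a clonal mouse preadipocyte line after hormonal induction. The genes were chosen by symbol, as cytochrome P450 genes of families Cyp1 to Cyp4, UDP-glucuronosyltransferases (Ugt), sulfotransferases (Sult), epoxide hydrolases (Ephx), flavin-containing monooxygenases (Fmo) and aldehyde dehydrogenases (Aldh, without Aldh1l2 and Aldh6a1). Of 106 genes so named, 39 were detected and are described here, out of 12386 detected genes in all. Detected means at or above the median of the whole table, 6.55 on the log2 scale, on 1 or more arrays, and each gene is represented by the probe set with its highest mean. The genes were thus chosen by symbol and by their highest value, and a gene that passed on 1 array alone had to be higher there than elsewhere. Differences between these arrays were also known when the families were chosen, so counts among them are descriptions.

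Phase I enzymes (cytochromes P450, flavin monooxygenases, epoxide hydrolases and aldehyde dehydrogenases) oxidise or hydrolyse a compound, and phase II enzymes (sulfotransferases and glucuronosyltransferases) attach a polar group to it. Many of them also act on the cell's own lipids, hormones and retinoids. The liver is their main site, where the receptors AHR, PXR (Nr1i2) and CAR (Nr1i3) induce several of them after exposure to a drug. Ritonavir inhibits human CYP3A4 and is also a ligand of human PXR.

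Cells were treated for 5 days after a differentiation cocktail of insulin, isobutylmethylxanthine and dexamethasone. The first experiment held 3 groups, namely 20 µM ritonavir (a protease inhibitor used against HIV), 1 µM tenofovir (which blocks reverse transcriptase as a nucleotide analogue) and the vehicle, 0.1% ethanol. In the second experiment 20 µM ritonavir was given to all 3 groups, combined with 0.1% DMSO as vehicle, 100 µM c9,t11-CLA or 100 µM t10,c12-CLA. CLA is conjugated linoleic acid, and its isomers differ in where the conjugated double bonds sit and in which of them is cis. Insulin was present throughout, no array of the second experiment lacks ritonavir, and the labels do not say whether ethanol was added there too.

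RNA of 4 replicate experiments was pooled for each of the 6 groups and hybridised to 1 array. No spread between replicates can be given and no difference was tested. Differences are of log2 values between 2 arrays, so that 1 stands for 2-fold. As a yardstick, the tenofovir and ethanol arrays differed by a robust SD of 0.113 over all detected genes. Of 8 measured mature adipocyte markers, all 8 were above the detection level on every array, and the log2 of their summed level was 17.12 with ethanol, 17.13 with tenofovir, 15.47 with ritonavir, 16.72 with ritonavir and DMSO, 16.75 with c9,t11-CLA and 16.02 with t10,c12-CLA. Lpl and Fabp4, which carry much of that sum, were 0.28 and 0.91 apart between the ethanol and ritonavir arrays, whereas the median of the 8 markers was 14.00 with ethanol, 14.03 with tenofovir, 9.29 with ritonavir, 12.41 with DMSO, 12.68 with c9,t11-CLA and 11.01 with t10,c12-CLA. Preadipocyte and fibroblast markers, 7 of 8 above the level on each array, summed to 14.48, 14.42, 15.79, 13.68, 13.81 and 14.45 in the same order, with Cd34 under the level on each. Of them Acta2, Tagln, Lox, Thy1 and Col1a1 were higher with ritonavir than with ethanol, by 0.89 to 3.77, and Dlk1 (-0.11), Pdgfra (-0.07) and Cd34 (-0.18) were not. Between 2 and 3 of 7 hepatocyte markers lay above the level, with Alb at 6.18 at most, while Ttr reached 7.88 and Hnf4a 7.23. Of macrophage markers 2 or 3 of 6 lay above it, led by Cd68 at 6.75 to 10.10, with Ptprc at most 4.15. Of endothelial markers 1 of 5 (Kdr) did on each array. Epithelial markers did so for 2 or 3 of 5, with Epcam at 9.48 to 10.25. Values between 7 and 8 were thus also read for genes of another cell type, and 16 of the 39 enzyme genes were under 8 on every array.

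The classes were detected unevenly. Of 18 aldehyde dehydrogenase genes 15 were detected, of 56 cytochrome P450 genes 16, of 4 epoxide hydrolases 2, of 4 flavin monooxygenases 3, of 13 sulfotransferases 2 and of 11 glucuronosyltransferases 1. The count of glucuronosyltransferases leaves out 3 probe sets that each carry 8 Ugt1a symbols. These lay well above the level, between 10.46 and 13.24, so the count does not show that such transcripts were scarce. The Cyp3a genes, which encode the main drug-metabolising P450s of liver, were not among them, and Cyp3a11, a target of PXR in mouse liver, lay between 4.45 and 5.34 over the 6 arrays. The AHR targets Cyp1a1 (5.40 to 5.70) and Cyp1a2 (5.14 to 5.36) were also under the level. On all 6 arrays 28 of the 39 reached it, and 11 were under it on 1 or more. Just inside the level were Cyp2d13, with 6.56 at its highest, and Cyp2c38, also with 6.56, and just outside it Fmo5 with 6.46 and Cyp2e1 with 6.29. The label of xenobiotic enzymes thus holds by symbol. Many of the detected genes, above all the aldehyde dehydrogenases, are known for work on the cell's own metabolites.

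Several genes well above the level were steady. Aldh7a1, which oxidises a lysine breakdown product, spanned only 10.09 to 10.26, Aldh16a1 9.82 to 9.95 and Ephx1, the microsomal epoxide hydrolase, 10.91 to 11.24. Aldh2, the mitochondrial enzyme that clears acetaldehyde, lay between 11.59 and 12.03, although another detected probe set of Aldh2 was 1.01 higher with ritonavir than with ethanol, and Cyp2c55 between 9.63 and 10.15. Aldh18a1, an enzyme of proline synthesis, read 12.39 with ritonavir and between 11.41 and 11.77 on the other 5 arrays. Among the 39 genes 13, or 33.3%, spanned 2-fold or more over the 6 arrays, beside 15.3% of all detected genes. The 13 include Aldh1a1, Aldh1l1, Cyp2c23 and Cyp2j9, which were under the level on 1 or more arrays, so that their spans lie partly below it. Spans with values raised to the level are not given here.

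Ritonavir was first compared with its ethanol vehicle, to ask what the protease inhibitor does to maturing adipocytes. On the ritonavir array the sulfotransferase gene Sult1a1 was 16.0-fold lower, Aldh1a7 6.39-fold lower and Cyp2f2 5.81-fold lower, whereas Ephx2, the gene of soluble epoxide hydrolase, was 5.39-fold higher. In all, 2 of the 39 genes were at least 2-fold higher, beside 4.56% of all detected genes, and 8 were at least 2-fold lower, beside 6.39%. That is 25.6% against 10.9% for either direction, and 9.43% against 7.66% over all 106 named genes and all genes without the detection filter. The median difference of the 39 was -0.04, and that of all detected genes 0.00. When values below the level were set to it, 1 gene was at least 2-fold higher, beside 4.19% of all detected genes, and 6 were lower, beside 5.91%, which removes Aldh1a1, Aldh1l1 and Cyp2c23. The lower adipocyte markers and the 5 higher fibroblast markers given above fall on the same array, and their part in these differences was not tested. Pooled bulk RNA cannot tell fewer cells with a transcript from less transcript per cell.

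**Figure D1:**
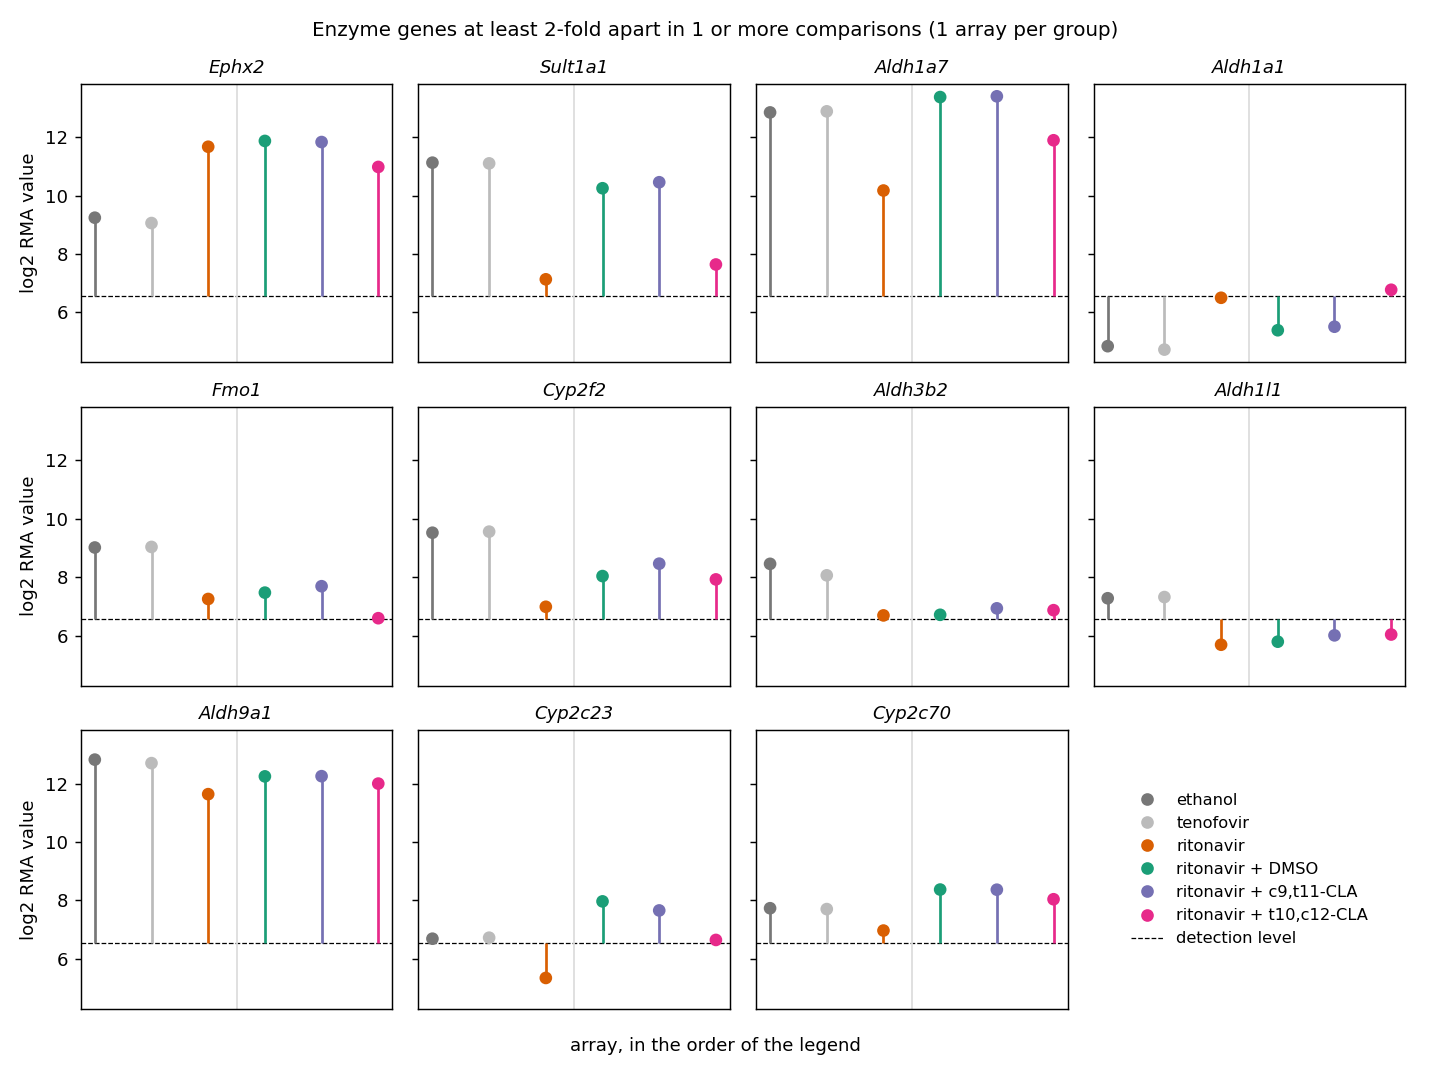
Log2 RMA values of the 11 enzyme genes that were at least 2-fold apart in 1 or more of the 7 comparisons, 1 point per array and 1 array per group, drawn from the detection level of 6.55 (dashed) and with the first experiment left of the grey line. Ephx2 is high on all 4 arrays with ritonavir, while Sult1a1 and Aldh1a7 are lowest on the arrays of ritonavir alone and of t10,c12-CLA.

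Sult1a1 encodes a phenol sulfotransferase that conjugates small phenols. It read 11.13 with ethanol, 11.10 with tenofovir, 7.13 with ritonavir, 10.25 with ritonavir and DMSO, 10.46 with c9,t11-CLA and 7.64 with t10,c12-CLA. The gene was low on 2 arrays, those of ritonavir alone and of ritonavir with t10,c12-CLA, and nearer to the vehicle on the other 2 with ritonavir. Its difference from ethanol was -4.00 for ritonavir and -0.88 for ritonavir with DMSO. Papss2, which makes the sulfate donor that sulfotransferases use, was 10.14 with ethanol, 10.04 with tenofovir, 8.94 with ritonavir, 8.69 with DMSO, 8.89 with c9,t11-CLA and 8.98 with t10,c12-CLA. Papss2 was thus low by a similar amount on all 4 arrays with ritonavir, whereas Sult1a1 was far lower on 2 of them than on the others. Sult5a1, the other detected sulfotransferase gene, lay between 6.80 and 7.33.

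Ephx2 hydrolyses epoxides of fatty acids, such as those that Cyp2c and Cyp2j enzymes make from arachidonic acid. Its values were 9.24 with ethanol and 9.06 with tenofovir, and 11.67, 11.87, 11.83 and 10.98 with ritonavir, ritonavir and DMSO, c9,t11-CLA and t10,c12-CLA. The 4 arrays with ritonavir lay at least 1.74 above the 2 without. Ritonavir differed from ethanol by 2.43 and ritonavir with DMSO by 2.63, and both differences use the same ethanol array. Among the possible epoxide makers, Cyp2j6 was 6.96 with ethanol, 0.05 higher with tenofovir and between 7.52 and 8.06 on the arrays with ritonavir, and Cyp2j9 was 5.85 with ethanol, 5.74 with tenofovir and between 6.09 and 6.93 on the others. Cyp2j9 was under the detection level on 3 arrays, those of ethanol, tenofovir and ritonavir alone. Of the detected Cyp2c genes, Cyp2c23 (-1.35), Cyp2c70 (-0.77) and Cyp2c38 (-0.61) were lower with ritonavir than with ethanol, and Cyp2c55 (0.45) was higher. With ritonavir and DMSO, Cyp2c23 (1.28) and Cyp2c70 (0.64) were above ethanol.

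A flavin monooxygenase, Fmo1, which oxidises nitrogen and sulfur atoms of drugs, went the other way. It read 9.02 with ethanol, 9.04 with tenofovir, 7.25 with ritonavir, 7.47 with DMSO, 7.69 with c9,t11-CLA and 6.59 with t10,c12-CLA. All arrays with ritonavir were thus at least 1.33 below both others. Its neighbours on the chromosome, Fmo2 (6.30 to 6.57) and Fmo4 (6.19 to 6.72), stayed around the detection level. Cyp2f2, known for activating naphthalene in the mouse lung, showed the same order in part, with 9.52, 9.56, 6.99, 8.04, 8.46 and 7.92 for ethanol, tenofovir, ritonavir, DMSO, c9,t11-CLA and t10,c12-CLA. Here the ritonavir array of the first experiment was the lowest.

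Among aldehyde dehydrogenases, Aldh3b2, a lipid aldehyde enzyme found on lipid droplets in mouse cells, read 8.46 with ethanol, 8.06 with tenofovir, 6.69 with ritonavir, 6.71 with DMSO, 6.93 with c9,t11-CLA and 6.87 with t10,c12-CLA. Other probe sets, annotated to Aldh3b2 and Aldh3b3 together, were near or under the detection level and differed less. They read 6.60 and 6.51 with ethanol and 6.29 and 6.11 with ritonavir. Aldh3b1, a close relative of Aldh3b2, also differed less, from 9.36 with ethanol to 8.72 with ritonavir. Aldh1l1, an enzyme of folate metabolism, was 7.28 with ethanol and 7.32 with tenofovir, and 5.68, 5.79, 6.01 and 6.03, all under the detection level, with ritonavir, DMSO, c9,t11-CLA and t10,c12-CLA. Both genes were low wherever ritonavir was present. Aldh9a1, which serves carnitine synthesis, was 12.83 with ethanol, 12.71 with tenofovir, 11.64 with ritonavir, 12.25 with DMSO and 12.26 with c9,t11-CLA, and lay between the ritonavir and DMSO values with t10,c12-CLA. Its second detected probe set gave -1.22 for ritonavir against ethanol, close to the -1.18 of the first.

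Set out by presence of ritonavir, 12 of the 39 genes (30.8%) were higher on all 4 arrays with the drug than on the 2 without, beside 28.6% of all detected genes, and 10 (25.6%) were lower, beside 22.6%. These shares were near the background. A gap of at least 2-fold between the arrays was met by Ephx2 upward, 1 gene beside a background of 0.670%, and downward by Fmo1, Aldh1l1, Aldh3b2 and Cyp2f2, which are 10.3% of the 39 beside 1.48%. This count was made after the values were seen. Either way it was 5, or 12.8% beside 2.15% of all detected genes. Without the ritonavir array of the first experiment it was also 5, beside 2.30%. Leaving out an array can only keep or widen a gap, so that count could not fall. With values raised to the level it was 4, or 10.3% beside 1.88%, where Aldh1l1 no longer met it. The arrays with and without ritonavir also differ in experiment, vehicle and fatty acid.

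The sequences before the start sites of 4 of the genes that were lower with ritonavir are shown because these genes shared a direction there, so that their upstream letters can be set side by side. Each is the 250 bases before an annotated start, 5′ to 3′, from RefSeq on GRCm38.p6, in lower case, with capitals for matches on either strand to AGGTCA (the element read by nuclear receptors such as RXR partners), GCGTG (the core read by AHR), TGACNNNGC (the core read by NRF2) and TTGCNNAA (a form read by C/EBP factors). No matches overlapped in them. The table had windows for 7 of the 11 enzyme genes at least 2-fold apart in any comparison.
Sult1a1, chr7:126676419-126676668, - strand: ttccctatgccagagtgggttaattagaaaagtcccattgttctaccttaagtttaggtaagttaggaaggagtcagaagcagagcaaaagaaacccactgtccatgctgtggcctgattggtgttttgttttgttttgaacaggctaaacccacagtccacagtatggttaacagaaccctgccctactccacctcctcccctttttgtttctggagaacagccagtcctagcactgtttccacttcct
Cyp2f2, chr7:27119705-27119954, + strand: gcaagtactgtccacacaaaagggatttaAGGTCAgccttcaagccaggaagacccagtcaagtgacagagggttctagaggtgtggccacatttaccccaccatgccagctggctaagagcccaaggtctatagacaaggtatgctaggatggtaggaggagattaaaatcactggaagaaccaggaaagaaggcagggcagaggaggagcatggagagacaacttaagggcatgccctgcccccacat
Aldh1l1, chr6:90550543-90550792, + strand: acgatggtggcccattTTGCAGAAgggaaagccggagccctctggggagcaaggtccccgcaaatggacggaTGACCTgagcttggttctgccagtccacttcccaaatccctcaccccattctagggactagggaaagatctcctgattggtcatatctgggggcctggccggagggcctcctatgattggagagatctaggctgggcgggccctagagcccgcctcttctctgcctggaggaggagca
Aldh9a1, chr1:167349741-167349990, + strand: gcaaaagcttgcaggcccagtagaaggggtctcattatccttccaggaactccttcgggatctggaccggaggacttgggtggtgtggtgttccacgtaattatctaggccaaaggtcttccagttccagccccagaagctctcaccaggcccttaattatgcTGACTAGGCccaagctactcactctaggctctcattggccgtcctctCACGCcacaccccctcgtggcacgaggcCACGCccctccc
In these windows Sult1a1 had 0 matches, Cyp2f2 had AGGTCA 221 bases before the start, Aldh1l1 had TGACCT, its reverse complement, and TTGCAGAA, and Aldh9a1 had CACGC, the reverse complement of GCGTG, at 2 places and TGACTAGGC. Over all 32851 windows of this length, 14.0% held AGGTCA, 28.2% GCGTG, 10.2% TGACNNNGC and 9.56% TTGCNNAA. Of the 32 windows of 30 enzyme genes in the table, 7 held AGGTCA, 9 GCGTG, 1 TGACNNNGC and 7 TTGCNNAA. GC content was 45.6% for Sult1a1, 51.6% for Cyp2f2, 59.6% for Aldh1l1 and 57.6% for Aldh9a1, beside a median of 52.4% over all windows. A match of letters is not a binding site, and letters without a match say nothing of a factor.

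Neighbouring paralogues differed in direction. Aldh1a1 makes retinoic acid from retinaldehyde, and Aldh1a7 is its close relative and the next protein-coding gene on the chromosome. Aldh1a7 read 12.85 with ethanol, 12.89 with tenofovir, 10.17 with ritonavir, 13.38 with DMSO, 13.40 with c9,t11-CLA and 11.89 with t10,c12-CLA. Aldh1a1 read 4.84, 4.72, 6.50, 5.38, 5.50 and 6.77 in that order and reached the detection level only with t10,c12-CLA. The arrays on which Aldh1a7 was lowest, ritonavir alone and t10,c12-CLA, were those on which Aldh1a1 was highest. For ritonavir against ethanol Aldh1a7 differed by -2.68 and Aldh1a1 by 1.66, with both values of Aldh1a1 under the detection level and hence uncertain. Each gene has 1 probe set, and whether either probe set also binds the other transcript was not tested. Another retinaldehyde enzyme, Aldh1a3, stayed between 6.17 and 6.76.

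The start regions of this pair are shown because they are nearly alike where the values run opposite. Both are the 250 bases before a RefSeq start on GRCm38.p6, 5′ to 3′ on the gene's own strand, and for Aldh1a1 the start nearer to Aldh1a7 was taken. Capitals mark the longest run of letters that both share.
Aldh1a1, chr19:20601718-20601967, + strand: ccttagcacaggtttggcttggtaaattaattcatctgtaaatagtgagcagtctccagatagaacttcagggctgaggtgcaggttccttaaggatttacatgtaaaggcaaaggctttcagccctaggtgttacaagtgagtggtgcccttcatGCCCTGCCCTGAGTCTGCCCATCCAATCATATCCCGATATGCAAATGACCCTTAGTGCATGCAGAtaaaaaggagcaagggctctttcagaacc
Aldh1a7, chr19:20727557-20727806, - strand: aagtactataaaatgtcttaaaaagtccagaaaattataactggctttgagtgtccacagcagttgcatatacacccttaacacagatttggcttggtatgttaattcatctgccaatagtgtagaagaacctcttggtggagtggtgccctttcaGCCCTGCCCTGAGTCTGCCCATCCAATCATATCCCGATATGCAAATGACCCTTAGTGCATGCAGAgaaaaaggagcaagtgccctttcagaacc
The shared run is 65 bases long and lies from 94 to 30 bases before each start. Over the last 100 bases, 94 are identical without gaps. None of the 4 motifs above was found in either window shown. The window of the other annotated Aldh1a1 start had TTTGGCAA, a match to TTGCNNAA on the opposite strand, 13 bases before that start.

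The array of ritonavir with DMSO, the control of the second experiment, was set against ethanol and against ritonavir alone. Against ethanol, 2 of the 39 genes were at least 2-fold higher (Ephx2 and Cyp2c23), beside 1.52% of all detected genes, and 4 were lower (Fmo1, Cyp2f2, Aldh1l1 and Aldh3b2), beside 2.99%, or 15.4% beside 4.51% either way. With values raised to the level 2 were higher, beside 1.29%, and 3 lower, beside 2.72%, or 5 beside 4.01% either way, since Aldh1l1 was no longer counted. Against ritonavir alone, 5 were at least 2-fold higher, beside 2.83%, and 1 lower, beside 2.07%, or 15.4% beside 4.91% either way. The 5 were Aldh1a7 (3.20), Sult1a1 (3.12), Cyp2c23 (2.62), Cyp2c70 (1.41) and Cyp2f2 (1.05), and the 1 was Aldh1a1 (-1.11). With values raised to the level 5 were higher, beside 2.44%, and 0 lower, beside 1.93%, or 5 beside 4.37% either way. These 2 comparisons share the DMSO array. Experiment and vehicle cannot be told apart, and on the DMSO array the summed adipocyte markers were higher and the fibroblast markers lower than on that of ritonavir alone, in values given above.

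Cyp2c23 and Cyp2c70 lay below the ethanol array with ritonavir alone and above it with ritonavir and DMSO. Cyp2c23, whose rat counterpart is an arachidonic acid epoxygenase, read 6.69 with ethanol, 6.72 with tenofovir, 5.34 with ritonavir, 7.97 with DMSO, 7.66 with c9,t11-CLA and 6.65 with t10,c12-CLA. Its value with t10,c12-CLA was close to those with ethanol and tenofovir. Cyp2c70, which hydroxylates bile acids in mouse liver, followed with 7.73, 7.70, 6.97, 8.37, 8.37 and 8.04. Cyp2c38 remained between 5.78 and 6.56.

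Tenofovir, an antiretroviral drug of a different class, was compared with the same vehicle. Of the 39 genes 0 were 2-fold apart, as were 0 of all detected genes (0%). The differences ran from -0.39 for Aldh3b2 to 0.21 for Aldh5a1, which degrades a GABA product, with a median of 0.00. Their robust SD was 0.107, next to 0.113 for all detected genes.

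The second experiment asked how the isomers of CLA act in the presence of ritonavir. With c9,t11-CLA 0 of the 39 genes were 2-fold from DMSO, beside 0.00807% of all detected genes. The largest differences were 0.43 for Cyp2f2 and -0.31 for Cyp2c23. The median was 0.10, with 30 genes above 0 and 8 below. That of all 12386 detected genes was 0.01, with 6476 above 0 and 5892 below. All these signs rest on the same DMSO array.

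With t10,c12-CLA at the same dose and time, 3 genes were at least 2-fold lower than with DMSO, beside 1.05% of all detected genes, and 1 was higher, beside 0.783%, or 10.3% beside 1.83% either way. With values raised to the level 3 were lower, beside 0.928%, and 0 higher, beside 0.710%, or 3 beside 1.64% either way. Sult1a1 was 6.12-fold lower (-2.61), Aldh1a7 2.79-fold lower (-1.48) and Cyp2c23 2.50-fold lower (-1.32). Aldh1a1 was 1.39 higher, or 0.22 with its DMSO value raised to the detection level. Ephx2 differed by -0.89 and Fmo1 by -0.88. Cyp1b1, a P450 that acts on oestradiol and polycyclic hydrocarbons and is a target of AHR, was 0.73 higher. The summed adipocyte markers were lower and the fibroblast markers higher on the t10,c12-CLA array than on the DMSO array. Of the macrophage markers Cd68 differed by 1.67, Itgam by 0.24, Csf1r by 0.15, Adgre1 by -0.07, Ptprc by -0.12 and Lyz2 by -0.22. The part of these markers in these differences was not tested.

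The isomers were also set directly against each other, since both were given at 100 µM for 5 days. Sult1a1 was 7.06-fold lower with t10,c12-CLA than with c9,t11-CLA, Aldh1a7 2.84-fold, Fmo1 2.14-fold and Cyp2c23 2.02-fold lower, which makes 4 of the 39 beside 1.53% of all detected genes. Aldh1a1, 1.27 higher, was the 1 gene in the other direction, beside 0.953%, and either way the shares were 12.8% and 2.48%. Aldh1a1 reached the detection level only on the t10,c12-CLA array and so entered the 39 through it. With values raised to the level 4 were lower, beside 1.37%, and 0 higher, beside 0.864%, or 4 beside 2.24% either way. Ephx2 differed by -0.85 and Cyp1b1 by 0.60. For the other genes the isomers lay less than 2-fold apart. With 1 array each, no test or interval of a difference between the isomers can be given, so genes that lie close together are not shown to respond alike.

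**Figure D2:**
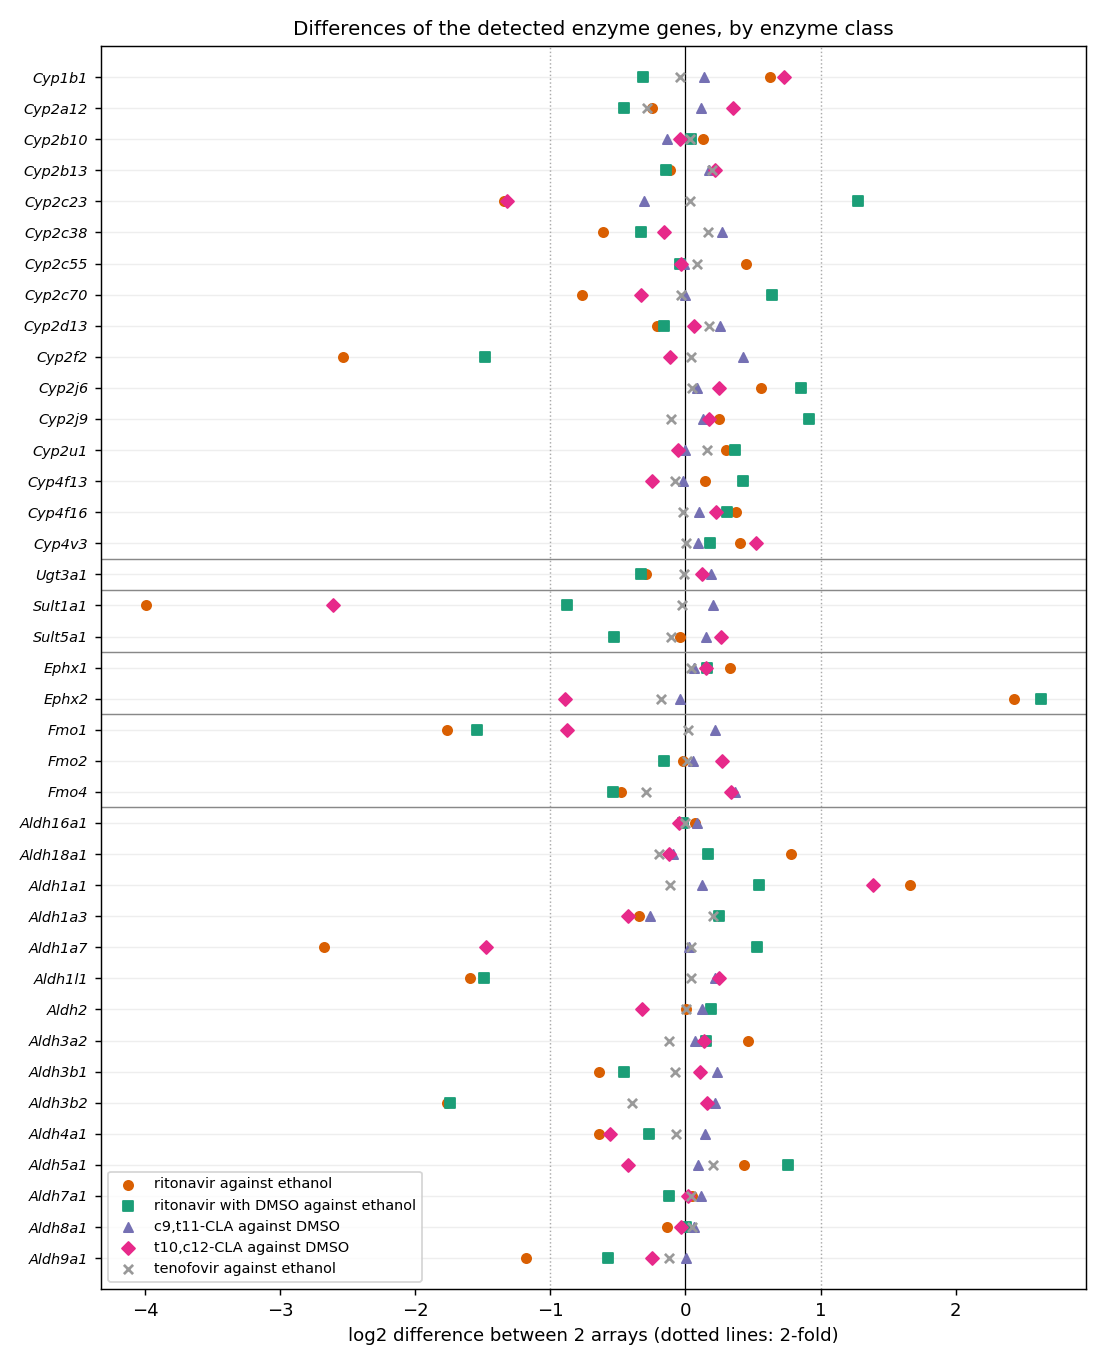
Log2 differences between 2 arrays for the 39 detected enzyme genes, grouped by class from cytochromes P450 (top) to aldehyde dehydrogenases (bottom), with 1 marker per comparison and dotted lines at 2-fold. Markers for tenofovir and c9,t11-CLA lie within 0.43 of 0, whereas those for ritonavir reach from -4.00 (Sult1a1) to 2.43 (Ephx2).

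Ritonavir against ethanol and t10,c12-CLA against DMSO have no array in common, and the values of the genes can therefore be set side by side. Of the 10 enzyme genes at least 2-fold apart with ritonavir, 7 (70.0%) had the same sign with t10,c12-CLA, beside 82.4% of the 1356 such genes among all detected, and 4 (40.0%) were again at least 2-fold apart in that direction, beside 12.8%. The 4 were Sult1a1, Aldh1a7, Cyp2c23 and Aldh1a1, of which Aldh1a1 was detected only through the t10,c12-CLA array. With values raised to the level, Sult1a1 and Aldh1a7 were left, 2 of 7 genes or 28.6%, beside 12.4%. Ephx2, Aldh1l1 and Aldh3b2 had the opposite sign, with 2.43 and -0.89 for Ephx2, -1.59 and 0.25 for Aldh1l1 and -1.77 and 0.16 for Aldh3b2. Across the 39 genes, which are not independent replicates, Pearson's r was 0.60 and Spearman's rho 0.37, and across all 12386 detected genes 0.54 and 0.40. All points of a comparison come from the same 2 arrays.

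**Figure D3:**
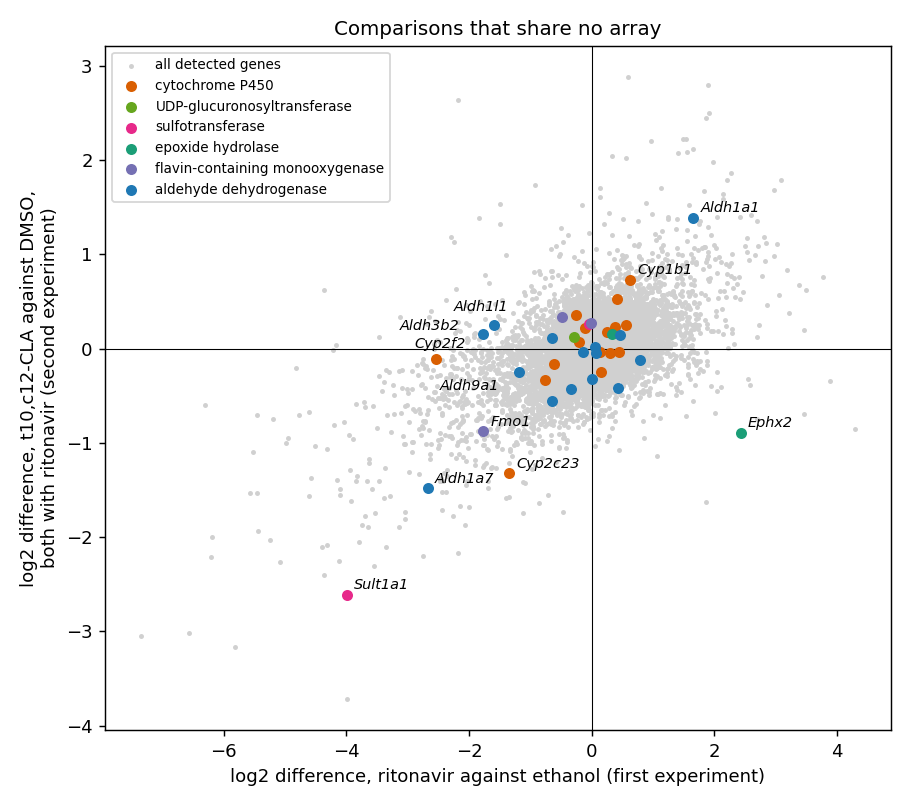
Log2 difference of ritonavir against ethanol (first experiment, x axis) and of t10,c12-CLA against DMSO, both with ritonavir (second experiment, y axis), for all detected genes in grey and the 39 enzyme genes coloured by class. Sult1a1 lies at -4.00 and -2.61 and Ephx2 at 2.43 and -0.89.

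Receptors that control these enzymes were looked at next. Ahr read 6.88 with ethanol, 6.95 with tenofovir, 8.36 with ritonavir, 6.86 with DMSO, 6.72 with c9,t11-CLA and 7.85 with t10,c12-CLA. Its target Cyp1b1 read 12.13, 12.09, 12.76, 11.82, 11.95 and 12.55. For both genes the array of ritonavir alone was the highest and that of t10,c12-CLA the next, while the Ahr partner Arnt differed by 0.26 for ritonavir against ethanol and by -0.04 for t10,c12-CLA against DMSO. Tiparp, another AHR target, was lowest on these 2 arrays, with 11.82 for ethanol, 11.76 for tenofovir, 10.88 for ritonavir, 11.15 for DMSO, 11.11 for c9,t11-CLA and 10.81 for t10,c12-CLA. The targets Cyp1a1 and Cyp1a2 were under the level throughout. Nr1i2, between 5.36 and 5.74, and Nr1i3, between 6.05 and 6.25, stayed under the level on every array. Rxra, the common partner of nuclear receptors, differed by -0.74 for ritonavir and -0.51 for ritonavir with DMSO. Of 10 detected receptors and partners, 1 was at least 2-fold higher (Ahr, 1.48) and 1 lower (the oxysterol receptor Nr1h3, -2.82) with ritonavir against ethanol.

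Among P450 electron donors and cofactor genes, 14 were detected, of which Cyb5r1, a cytochrome b5 reductase, was 1.12 higher and Papss2 -1.20, with a median of -0.12. Por, the main electron donor, was not analysed here. Glutathione transferases split, with 4 of 20 at least 2-fold higher and 4 lower with ritonavir and a median of 0.20. Of the 4 higher, Gsta2 and Gsta3 were under the detection level on both arrays compared and are hence uncertain. Gsta3 read 5.22 with ethanol and 6.26 with ritonavir. Gsta2, which conjugates electrophiles to glutathione, read 4.60 with ethanol, 4.80 with tenofovir, 6.52 with ritonavir, 7.24 with DMSO and 9.73 with t10,c12-CLA, with c9,t11-CLA 0.24 below DMSO, and was therefore under the detection level on 3 arrays. Its level was highest with t10,c12-CLA, 2.49 above DMSO. Gsto2 was 1.08 higher with ritonavir, and Gstz1, an enzyme of tyrosine breakdown, differed by -2.46 and Mgst2 by -1.85. Against ethanol on the DMSO array, 4 of 20 were higher, led by Gsta2 (2.64) and Gsta3 (2.49), and 2 lower, Gstt3 (-1.08) and Gstz1 (-1.07), where the shares of all detected genes were 1.52% and 2.99%. The ethanol values of Gsta2 and Gsta3 were under the detection level, so the size of their differences is uncertain. With t10,c12-CLA against DMSO 1 was higher, Gsta2, and 1 lower, Gstz1 (-1.37), where those shares were 0.783% and 1.05%.

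Of 21 detected reductases, alcohol dehydrogenases and oxidases, 4 were at least 2-fold higher and 4 lower with ritonavir, with a median of -0.08. Maoa, the monoamine oxidase A gene, read 9.57 with ethanol, 9.88 with tenofovir, 11.94 with ritonavir, 11.75 with DMSO, 11.69 with c9,t11-CLA and 12.43 with t10,c12-CLA. Like Ephx2 it was high on all 4 arrays with ritonavir. Akr1c14 was 1.64 higher with ritonavir but only 0.31 higher with ritonavir and DMSO. Its ethanol value of 6.14 was under the detection level, so the size of these differences is uncertain. The carbonyl reductases Cbr3 and Cbr1 differed by -2.57 and -1.64 with ritonavir. Adh1, an alcohol dehydrogenase that also takes retinol, differed by -1.56 with ritonavir, by 0.01 with ritonavir and DMSO, and by -1.27 with t10,c12-CLA against DMSO. Of 6 detected hydrolases 3 were lower and 0 higher with ritonavir, with a median of -0.92, and on the DMSO array 1 was lower against ethanol, with a median of 0.02. The carboxylesterases Ces1f and Ces1d, which also cleave lipid esters, differed by -3.89 and -2.00 with ritonavir, and Ces1d by -1.68 with t10,c12-CLA against DMSO. Of 5 detected methyl and other transferases, Nnmt, the nicotinamide methyltransferase, was the 1 at least 2-fold apart (-1.35). For the counts with ritonavir against ethanol in these lists, the shares of all detected genes were 4.56% higher and 6.39% lower. With tenofovir or c9,t11-CLA 0 genes of these 6 lists were 2-fold from their control.

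**Figure D4:**
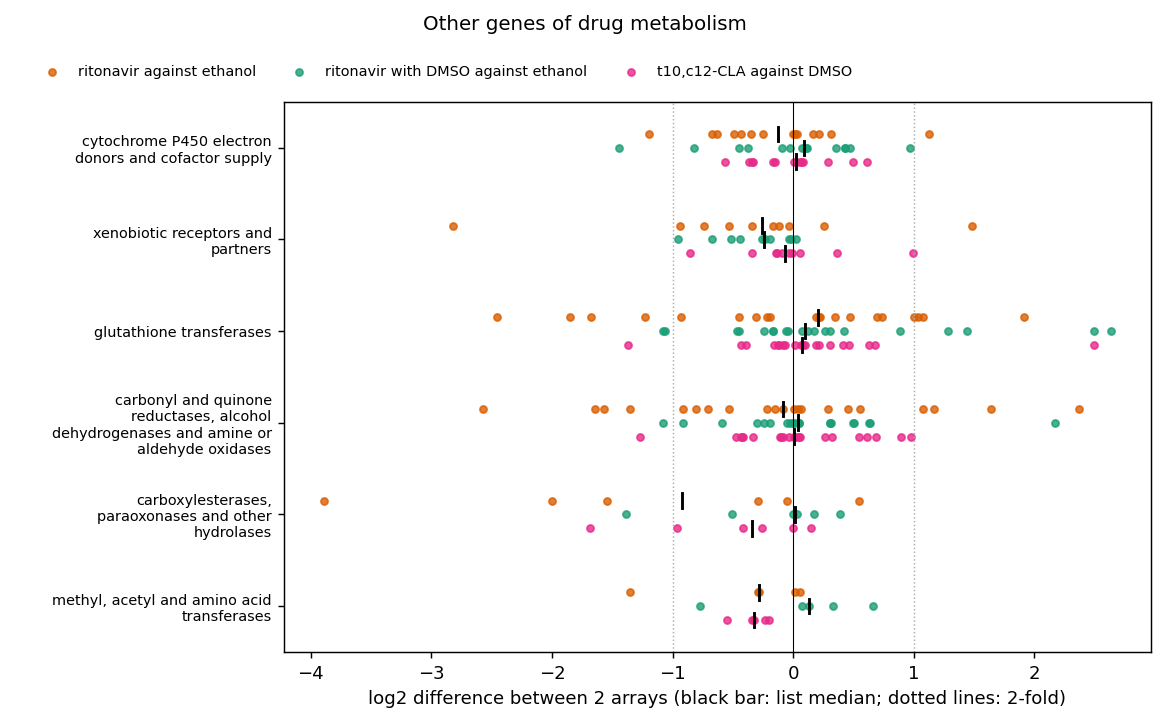
Log2 differences between 2 arrays for the detected genes of 6 other lists of drug metabolism genes, 1 point per gene and 3 comparisons, with black bars for the medians and dotted lines at 2-fold. Glutathione transferases spread both ways, while the hydrolases have a median of -0.92 with ritonavir and 0.02 with ritonavir and DMSO.

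Probe sets set a limit to some of these values. Of the 11 enzyme genes at least 2-fold apart in any comparison, 6 rest on a probe set with a suffix, 5 on one whose probes match several transcripts of 1 gene (Sult1a1, Ephx2, Cyp2f2, Aldh9a1 and Aldh1l1) and 1, Cyp2c23, on one whose probes may match transcripts of more than 1 gene. Without such probe sets these 6 genes have no value, and 4 of 33 genes were at least 2-fold apart for ritonavir against ethanol. That is 12.1% beside 11.2% of all genes detected in that way, a share near the background, in place of 25.6% beside 10.9%.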

How the data were processed

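The deposited table holds log2 values of 45101 probe sets on 6 Affymetrix mouse arrays, 1 per group, between 2.17 and 15.01. Per the submitters' processing notes the authors used RMA in Affymetrix Expression Console, without versions. RMA subtracts background and makes the arrays' distributions alike, so a shift shared by most genes would be removed. Array medians lay between 6.54 and 6.56. Per the labels' protocols, RNA of 4 replicate experiments was pooled per group.

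Probe sets were named through the platform annotation, with symbols updated by gene identifier. A single symbol was annotated for 34958, while 932 with several and 9211 unlisted ones were left out. This gave 18194 genes. The counting step was tested on simulated data. Depth is not defined for arrays, and the single array per group limits precision.

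The members and lists were chosen with earlier results of these data known. Genes are named if they were at least 2-fold apart in any of the 7 comparisons, had the largest difference up or down in a comparison, were among the 10 with the highest mean, or lay next to the detection level. Of each other list at most 2 up and 2 down per comparison are named, with Ahr, Nr1i2, Nr1i3 and Rxra in any case. Relatives, neighbours, partners and known targets of these genes (such as Fmo2, Aldh3b1, Cyp2j6, Arnt, Tiparp and Cyp3a11) were added after their values were seen. The 8 alternatives covered probe set choice, detection filter, normalization and threshold. Further alternatives for the ritonavir gap count and for the overlap with t10,c12-CLA were added after the values were seen. Tables were handled in Python 3.11.15 with pandas 2.3.3 and numpy 2.4.6, lowess came from statsmodels 0.14.6, and scipy 1.17.1 and matplotlib 3.10.9 gave coefficients and plots.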

Additional observations from a re-analysis of the deposited data

Results flagged for a closer look

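Cyp2c23 is the 1 enzyme gene whose difference from ethanol had opposite directions in the 2 experiments, each at least 2-fold. Ritonavir alone differed from ethanol by -1.35, with the ritonavir value under the detection level, and ritonavir with DMSO by 1.28. The difference between these effects was not tested, since each rests on 1 array, and both use the same ethanol array.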

How the results depend on the processing

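No paired analysis was possible because each group has 1 array. Of 31 differences of at least 2-fold, 31 kept their direction and size class after quantile normalization again and after removal of the trend on mean expression by lowess (span 0.3). RMA had already made the arrays' distributions alike, so quantile normalization again could move these values little and is no check of the normalization. All those with a value kept both with the mean of a gene's probe sets (29), without suffixed probe sets (14), without the filter (31) and at a stricter level (17). The suffix and filter choices only drop or add genes and leave the values of these genes unchanged, so their outcome was fixed in advance. With the mean of its probe sets, Aldh1l1 was under the detection level on every array and dropped out, so its differences had no value there. Aldh9a1 was then the only one of these genes with a value and more than 1 probe set. With values raised to the detection level of 6.55, 24 of 31 were still at least 2-fold. Counts of enzyme genes at least 2-fold apart moved by over 1.5 times under 3 choices. In the order ritonavir against ethanol, ritonavir with DMSO against ethanol, the same against ritonavir, t10,c12-CLA against DMSO and t10,c12-CLA against c9,t11-CLA, the counts were 10, 6, 6, 4 and 5. Without suffixed probe sets they were 4, 2, 3, 2 and 3 of 33 genes, or 12.1%, 6.06%, 9.09%, 6.06% and 9.09% beside 11.2%, 4.36%, 4.99%, 1.76% and 2.38% of all genes, near the background for the first 2. At a stricter level of 8.77 they were 6, 3, 3, 2 and 3 of 18 genes, or 33.3%, 16.7%, 16.7%, 11.1% and 16.7% beside 12.9%, 5.31%, 6.09%, 2.30% and 3.11%. At 1.5-fold they were 16, 11, 11, 7 and 8 of 39, or 41.0%, 28.2%, 28.2%, 17.9% and 20.5% beside 24.8%, 14.1%, 14.6%, 7.07% and 8.09%. For tenofovir and c9,t11-CLA the count was 0 under all 8 alternatives. Values near the background of the array limit Aldh1a1, Aldh1l1 and Cyp2c23, and the lack of replicate arrays limits all.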

Other observations

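Of 10 probe sets annotated to several genes of these families, 3 carry the same 8 Ugt1a symbols. Their values lay between 10.46 and 13.24, and none of the 3 spanned more than 0.13 over the 6 arrays. They cannot be given to 1 glucuronosyltransferase and entered no count.

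Aldh3a1, under the detection level on every array, ran from 4.70 with ritonavir and DMSO to 6.24 with ethanol.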
